A study of Rattus norvegicus with 232 samples.

Results

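Ribosomal protein pseudogenes were followed in the brain transcriptome of 74 inbred rat strains. They were taken as every feature of the 2 deposited gene tables of version 7.1 whose symbol starts with Rpl or Rps and holds -ps. The table of genes reconstructed from the reads held 25 such features with 15 symbols among its 84239 features, and the table of RefSeq genes held 1 among 20859. A feature is 1 gene model of the reconstruction, and several features can carry 1 symbol. The deposited annotation gave 41 features with such a symbol, of which 16 were not in the expression table, and 10 symbols had no feature in it.

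RNA was sequenced from brain tissue of untreated animals after depletion of ribosomal RNA, in stranded libraries. The strains were 30 of the HXB/BXH recombinant inbred family, bred from SHR/OlaIpcv and BN-Lx/Cub, 19 of the FXLE/LEXF family, bred from F344/Stm and LE/Stm, and 25 inbred strains that include those progenitors. All 232 samples were labelled as whole brain, 148 as male, and 84 carried no label of sex. The authors' values are on a log2 scale in the RefSeq table. Those of the reconstructed table are on a similar scale and are read here as log2 units, although 46 single values exceed 30 and the highest is 72.6. The RefSeq table has 5 such values, up to 36.9. Neither table holds counts, so the depth is unknown and a low value is not shown to be absence. The reconstructed table held 201 animals, and 197 were in that of RefSeq genes. Of the 74 strains, 56 had 3 animals or more, and the 4 with 1 animal entered the tests with the spread of the others. Over the animals of the reconstructed table, 10 liver genes had a median of 9.09 and reached 20.1 in LE/Stm 2, the only LE/Stm animal of that table. Neuron markers ran from 12.9 to 14.0 and oligodendrocyte markers from 14.8 to 16.1.

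Ribosomal proteins are made in every cell, from strongly expressed genes with several exons. Mammalian genomes carry many processed copies of these genes, which arise when a messenger RNA is copied back into DNA and inserted elsewhere. Such a copy usually has a single exon, lacks the parent's promoter and keeps much of the parent's sequence. Reads from a parent and a near-identical copy can be hard to tell apart, so each value below is the share of reads that the authors' counting gave to a feature.

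The features fell into 3 kinds by their neighbours. For each, the 16 nearest named genes of the annotation, 8 on each side, were compared with the neighbours that RefSeq lists for the pseudogene and for the parent gene, the gene of the same name without -ps. At 13 features of 10 symbols the neighbours were those of the pseudogene, with 11 to 16 names shared and 0 shared with the parent. At 7 features of 5 symbols they were those of the parent, with 9 to 14 names shared and 0 with the pseudogene. Those 5 symbols were Rpl38-ps9, Rpl9-ps30, Rps20-ps10, Rpl8-ps7 and Rpl39-ps13, and their features had 2 to 8 exons. For instance, the Rpl38-ps9 feature of 5 exons lay on chromosome 10 beside Cog1 and Cdc42ep4, as Rpl38 does. The remaining 5 features, all of Rpl35a-ps6, shared 0 names with either.

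The single-exon copies among the 25 features were 7, which were Rpl34-ps1, Rpl38-ps8, Rps4x-ps9, Rps21-ps1, Rpl4-ps1 and 1 feature each of Rpl9-ps31 and Rpl6-ps1. In 3 features the pseudogene was merged with other genes. These were Rps7-ps20 with Herc6, the larger Rps7-ps23 feature with Camta1 and Vamp3, and the 7-exon Rpl8-ps7 feature with LOC120093953. The value of a merged feature is not that of the pseudogene alone. Genome coordinates below are those of the deposited annotation, whose build is not given in the sources used here.

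Strain differences were called for 11 of the 25 features in an F-test across strain means (limma, Benjamini-Hochberg adjusted p under 5%), against 20.2% of all features of the table. Of the cytosolic ribosomal protein genes, the class the parents belong to, 17 of 80 features (21.2%) were called in the same table. By kind, 4 of the 13 features at a pseudogene's own place, 3 of the 7 at the parent's place and 4 of the 5 Rpl35a-ps6 features were called. Of the 11 features at a pseudogene's own place that were not merged with other genes, 3 were called (27.3%). The broad-sense R2, the share of the variance between animals that lies between strains, had a median of 0.45 over the 25 features and ran from 0.295 to 0.928. Its median was 0.41 over all features and 0.43 over the ribosomal protein genes. In the paper, permuted strain labels also gave a sizeable R2, so an R2 alone does not show a strain effect. No R2 of permuted labels is given here. Of the members, 21 had a mean above the table's median of 3.36, and 10 of these were called, beside 17 of 69 ribosomal protein features (24.6%) above the same level. The share of all features called above that level is not given. The 20.2% covers features of every level, so neither count of members has a background matched for level.

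**Figure D1:**
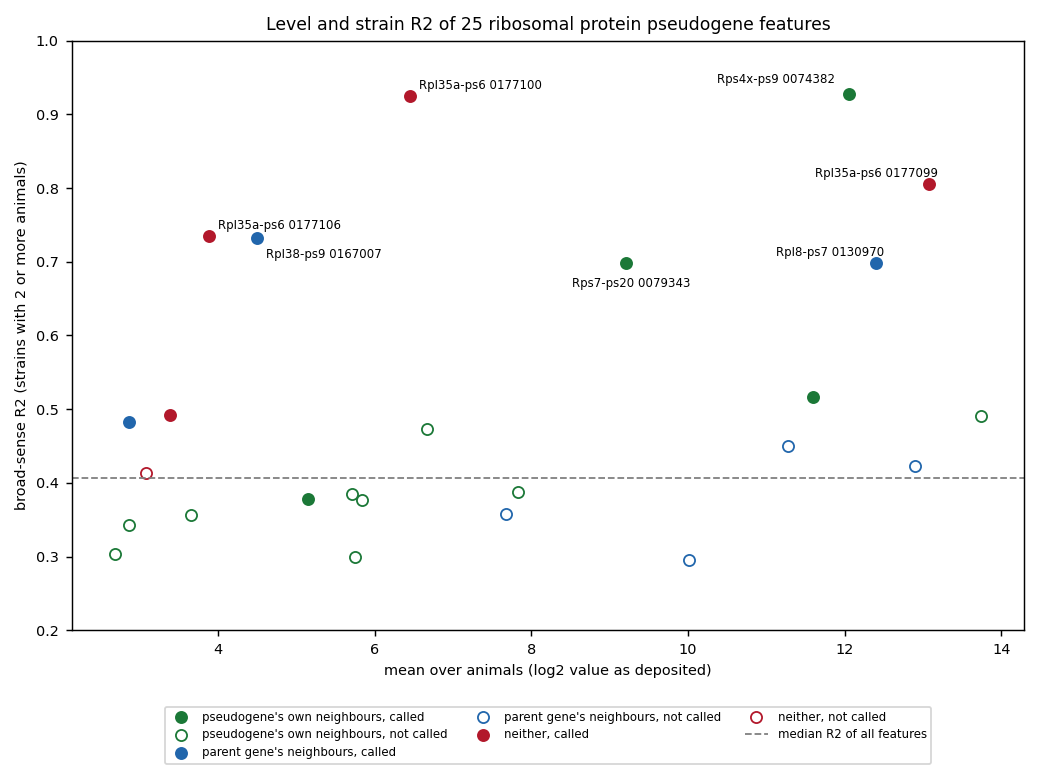
Mean over animals (log2 value, x axis) against broad-sense R2 (y axis) of the 25 ribosomal protein pseudogene features of the reconstructed table. Colour gives the kind of neighbours, filled points are those called for a strain difference, and the dashed line is the median R2 of all features; 2 points, Rps4x-ps9 and the 4-exon feature of Rpl35a-ps6, lie above an R2 of 0.92.

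Within the panels, 9 features were called among the HXB/BXH strains (background 12.7%), 4 among the FXLE/LEXF strains (1.61%) and 7 among the inbred strains (8.35%). Without the animals of any 1 replicate number these counts were 5 to 6, 2 to 3 and 4 to 7, and the 11 over all strains became 7 to 8. In the contrast of the HXB/BXH progenitors, 4 features were higher and 0 lower in BN-Lx/Cub than in SHR/OlaIpcv, where 2.23% of all features were called, 0.916% higher and 1.31% lower. With sequencing batch in the model 0 of these 4 calls were left, and without any 1 animal of these strains 1 to 4. In the batch model an animal with several libraries entered with the lowest of their batch numbers, although its value was their mean. In the contrast of the FXLE/LEXF progenitors, 1 feature was higher in F344/Stm than in LE/Stm (0.275% of all features called, 0.102% higher and 0.173% lower), a contrast with 1 LE/Stm animal. A feature was termed split when 1 strain mean or more lay under the 25th percentile of all feature means (2.03) and 1 or more over their median. This held for 7 members, against 27.8% of all features, and 7 of 25 is near that background.

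Rps4x-ps9 (PRN7.71G0074382) had the highest R2 of the members, 0.928, the 99.97th percentile of the table. It is a copy of Rps4x, the X-linked gene of a protein of the small ribosomal subunit, and lay as 1 exon of 935 bases on chromosome 4 (37758372 to 37759306, minus strand). Its median strain mean was 12.35. In 7 strains it was lower, and the next strain, HXB1/Ipcv, stood 2.12 above them at 11.47. A gap of 2 or more between neighbouring strain means was found in 2 members and in 0.268% of all features. The other member was the single-exon feature of Rpl6-ps1. Its gap lay between F344/NCrl at 11.5 and BUF/MnaMcwi at 28.5, a strain with 1 animal.

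The 3 animals of ACI/SegHsd had 7.38, 8.42 and 8.79, and those of DA/OlaHsd had 8.77, 8.37 and 8.79. In the FXLE/LEXF family the lower strains were FXLE15/Stm (8.55 and 8.72 in 2 animals), LEXF9/Stm (9.13 in 1 animal), and LEXF10B/Stm, LEXF2C/Stm and LEXF7B/Stm, whose 9 animals ran from 9.04 to 9.53. No strain had animals on both sides of the gap. Normal mixtures placed 7 strains around 8.92 and 67 around 12.40.

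Both progenitors of that family were in the higher cluster, so 5 of the 19 FXLE/LEXF strains fell below both. F344/Stm had 12.32, 12.72 and 11.97, and the single LE/Stm animal had 12.62. In the transcript table, which held 3 LE/Stm animals, the same model had 11.54, 12.57 and 12.40 in LE/Stm and 12.18, 12.87 and 11.60 in F344/Stm. The strain effect passed in the FXLE/LEXF strains (limma, adjusted p = 9.0e-16) and in the inbred strains (limma, adjusted p = 2.1e-18). It did not pass among the HXB/BXH strains, whose means ran from 11.47 to 12.64 (limma, adjusted p = 0.33).

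The parent gene Rps4x showed the opposite order in the same table. Its feature on the X chromosome (67298522 to 67302965, minus strand, 7 exons) had strain means of 11.31 to 11.91 in the 7 strains where the copy was low, the 7 highest ranks of the 74 strains. In the other 67 strains it ran from 8.23 to 10.61, with a median of 9.75. Its own strain effect passed (R2 = 0.70, limma, adjusted p = 9.9e-12). The sum of both features, formed on the linear scale and written as log2, ran from 11.60 to 13.39, a range of 1.79 beside 5.07 for the copy and 3.68 for the parent. The 7 strains were still low in this sum, at 11.60 to 12.05 (ranks 1 to 11), where the other 67 had a median of 12.64.

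In the RefSeq table, which has no entry for this copy, Rps4x varied less across strains and did not pass. Its strain means ran from 12.62 to 13.21 (R2 = 0.45, limma, adjusted p = 0.075), and those of the 7 strains, 12.81 to 13.03, lay inside that range at ranks 14 to 66. The difference between strains in the parent was thus seen in the table that lists the copy as a gene of its own, and did not pass in the table without it. Whether reads moved between the 2 features was not tested. Per kb of exon, the copy had a level of 12.16 and the reconstructed parent 9.06, both on the log2 scale.

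**Figure D2:**
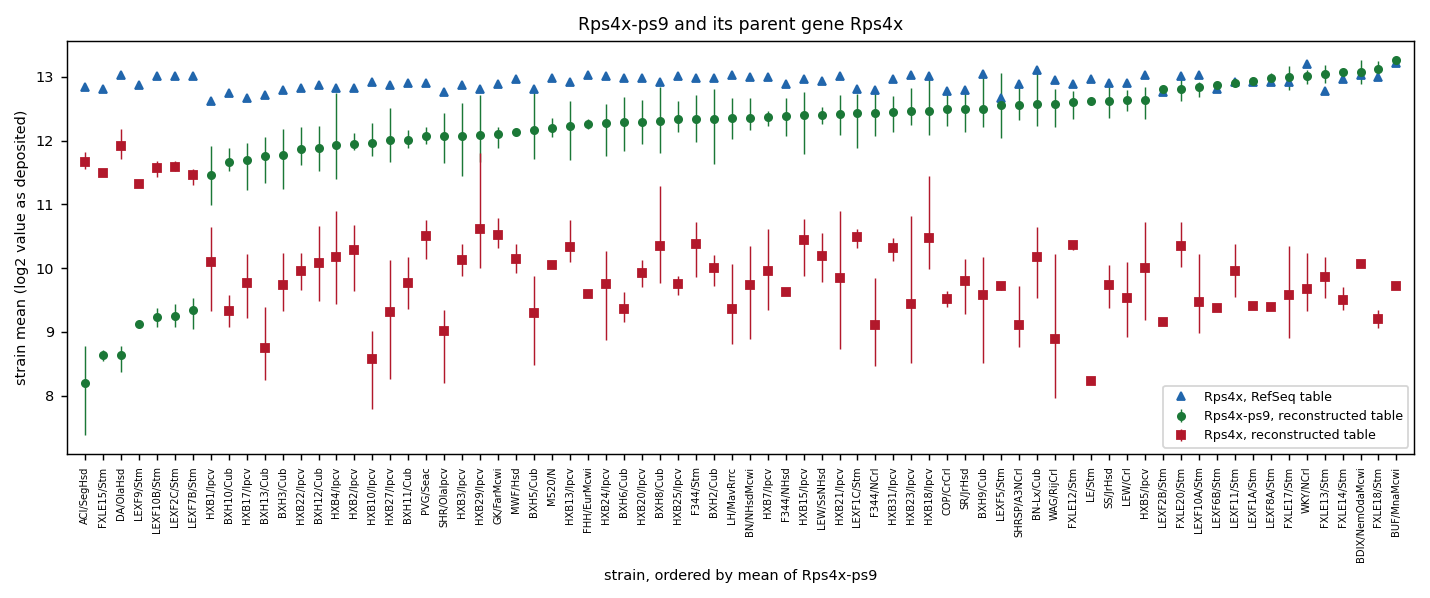
Strain means (log2 value, y axis) of Rps4x-ps9 and Rps4x in the reconstructed table and of Rps4x in the RefSeq table, for 74 strains ordered by the copy (x axis). Vertical lines span the animals of a strain; in the 7 strains at the left the copy is at 8.20 to 9.34 and the reconstructed parent at 11.31 to 11.91, while the RefSeq parent stays between 12.62 and 13.21.

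Rpl35a-ps6 had a feature at 2 levels over strains. Rpl35a encodes a protein of the large subunit. The 5 features overlapped on the minus strand of chromosome 12, between 5922715 and 6072780. They may share reads, so they are not taken as independent measurements. They had 5 exons (the largest model), 4 exons, and 2 exons in 3 short models of 205 to 214 bases.

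The 4-exon feature (PRN7.71G0177100) of 492 bases ran from 1.30 in BXH12/Cub to 11.74 in LEXF2B/Stm, a range of 10.4 log2 units, with an R2 of 0.925. Its strains formed 2 clusters, 36 around 3.21 and 38 around 9.55, and the gap between them ran from 5.18 in FXLE13/Stm to 7.07 in HXB20/Ipcv. The higher level was found in 18 of 30 HXB/BXH strains, 7 of 19 FXLE/LEXF strains and 13 of 25 inbred strains. The 7 FXLE/LEXF strains were FXLE15/Stm, FXLE17/Stm, FXLE18/Stm, LEXF10A/Stm, LEXF10B/Stm, LEXF2B/Stm and LEXF6B/Stm. In 5 strains, BXH9/Cub, HXB10/Ipcv, HXB20/Ipcv, HXB24/Ipcv and LEXF1C/Stm, animals lay on both sides of 6.13, the middle of the gap. Of these only HXB20/Ipcv, from 3.50 to 9.36, had animals beyond both of its ends. The lowest animals of BXH9/Cub, HXB10/Ipcv and HXB24/Ipcv (5.76, 5.94 and 6.08) and the highest of LEXF1C/Stm (6.65) lay within it.

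The progenitors of each family stood on opposite sides. BN-Lx/Cub had 9.20, 10.23 and 6.37 in 3 animals, and SHR/OlaIpcv had 2.62, 2.62, 2.47 and 3.28 in 4 animals. The groups did not overlap, and the difference was 5.85 ± 0.87 (SE, limma, adjusted p = 2.7e-07). F344/Stm had 9.46, 9.41 and 8.81 against 2.08 in the single LE/Stm animal, a difference of 7.15 ± 1.32 (SE, limma, adjusted p = 1.8e-04). This SE assumes that the lone LE/Stm animal varies like the other strains, and that animal was the one highest in liver genes, whose part in the result was not tested. In the transcript table the values were 10.62, 10.69 and 9.79 in F344/Stm and 3.85, 0.834 and 1.25 in LE/Stm, 3 animals each, which did not overlap and differed by 8.39 ± 1.09 (SE). The strain effect passed in each panel (limma, adjusted p = 2.4e-17 in HXB/BXH, 2.2e-09 in FXLE/LEXF and 4.2e-20 in the inbred strains).

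The call between BN-Lx/Cub and SHR/OlaIpcv did not hold with sequencing batch in the model (3.68, limma, adjusted p = 0.16), and with the batch of the sample titles it did (3.95, adjusted p = 0.012). In both models SHR/OlaIpcv 1 entered as batch 1 and BN-Lx/Cub 3 as batch 4, although their values were means over libraries of several batches. By the batch label, BN-Lx/Cub exceeded SHR/OlaIpcv by 7.04 in batch 3, by 5.95 in batch 4 and by 1.11 in batch 6. The batch 6 value rests on 1 library of BN-Lx/Cub 3, which had 3.17, whereas the other library of that animal had 9.56 in batch 4. The 21 libraries of SHR/OlaIpcv ran from 0.741 to 5.01, with a median of 2.83.

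**Figure D3:**
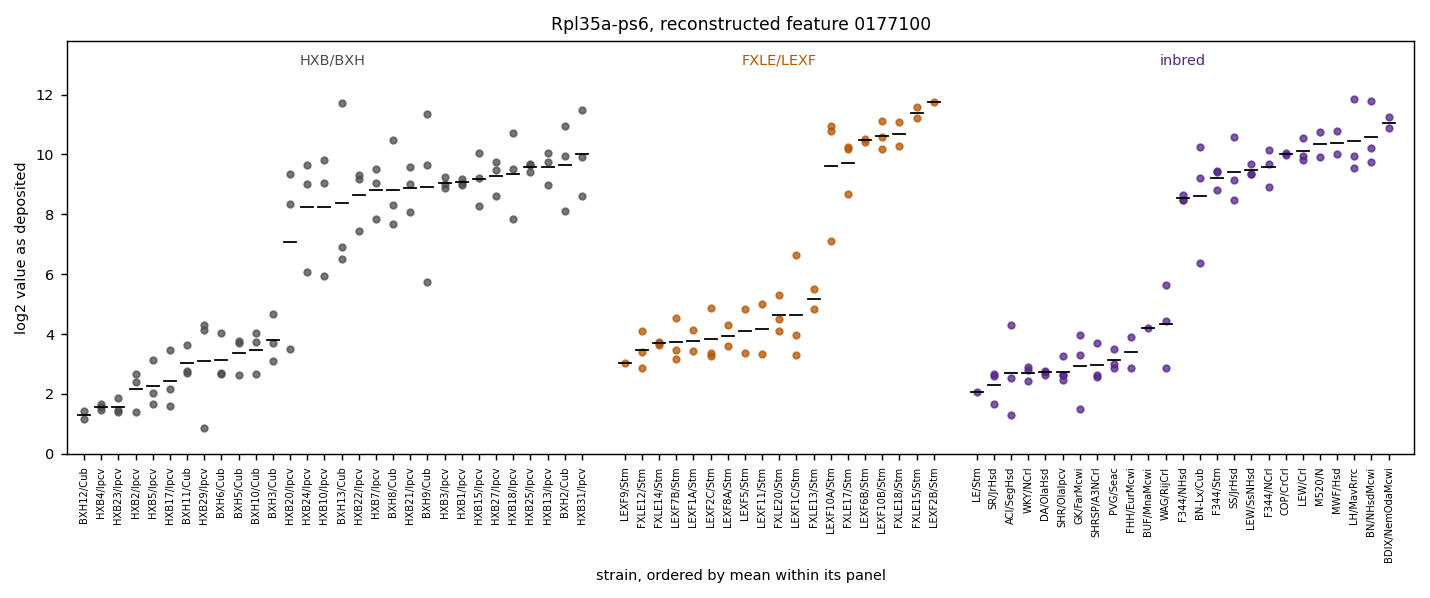
Values of each animal (points, log2) and strain means (bars) of the 4-exon Rpl35a-ps6 feature, with strains ordered by mean within the HXB/BXH, FXLE/LEXF and inbred panels. Each panel holds strains at both levels, 18 of 30, 7 of 19 and 13 of 25 at the higher one, with the gap of the strain means between 5.18 and 7.07.

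The 5-exon feature of Rpl35a-ps6 (PRN7.71G0177099) was high in every strain, with a mean of 13.07, and normal mixtures placed 45 strains around 12.34 and 29 around 14.28 (R2 = 0.81, limma, adjusted p = 6.1e-21). These clusters nearly met, at 13.33 and 13.53, closer than the SD of 0.63 between animals of a strain. All 29 strains of its upper cluster were among the 38 at the higher level of the 4-exon feature, of which they made up 76.3%. The 2-exon feature of 211 bases (PRN7.71G0177106) was lower (mean 3.88, R2 = 0.73) and had 43 strains in its upper cluster, which held all 38 of those strains (88.4% of the 43). Its clusters also nearly met, at 3.48 and 3.66, beside an SD between animals of 1.20. It was higher in BN-Lx/Cub (4.42, 5.43 and 3.42) than in SHR/OlaIpcv (1.57, 0.795, 1.58 and 1.35), by 3.10 ± 0.91 (SE, limma, adjusted p = 0.043). This call was lost in 8 of the 11 alternatives, among them leaving out BN-Lx/Cub 1 or 2 or any 1 of the SHR/OlaIpcv animals (adjusted p = 0.067 to 0.34).

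The other 2-exon features of Rpl35a-ps6 varied less between strains. The feature of 214 bases passed over all strains (mean 3.38, R2 = 0.49, limma, adjusted p = 0.019) but not without any 1 replicate number (adjusted p = 0.10 to 0.55), and the feature of 205 bases did not (mean 3.08, R2 = 0.41, limma, adjusted p = 0.25). The parent Rpl35a on chromosome 11 (67726034 to 67730023, minus strand) was even over strains, between 8.35 and 9.39 (R2 = 0.32, limma, adjusted p = 0.82). Per kb of exon, the level of Rpl35a was 9.24, that of the 5-exon pseudogene feature 13.09, that of the 4-exon feature 7.47 and those of the 2-exon features 5.37 to 6.13.

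Of the features at the parent's place, the 8-exon feature of Rpl8-ps7 (PRN7.71G0130970) stood apart in 2 strains. Rpl8 encodes a protein of the large subunit and has no separate feature in the reconstructed table. BUF/MnaMcwi had 9.35 in its 1 animal and BXH2/Cub had 9.32, 10.12 and 9.79, whereas SHR/OlaIpcv, the next strain, had a mean of 11.63 and the median strain 12.45. No animal of another strain lay below 10.69, the middle of the gap, and the strain effect passed (R2 = 0.70, limma, adjusted p = 6.7e-14). The SHR/OlaIpcv animals had 12.12, 11.50, 10.78 and 12.11, and 12 libraries of the first of them ran from 10.29 to 12.72, a wide spread for a value of this height.

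Rpl8 of the RefSeq table had its 2 lowest values in the same 2 strains. It was 10.63 in BUF/MnaMcwi and 10.49, 11.21 and 10.60 in BXH2/Cub, with a mean over animals of 12.44 (R2 = 0.72, limma, adjusted p = 2.1e-15). The difference thus appeared under both names, at the one place. The other Rpl8-ps7 features did not share it. The 7-exon feature, whose model takes in a further locus, had 10.04 and 9.99 in these strains and the lowest R2 of the 25 members, 0.295 (strain means 9.81 to 10.16, limma, adjusted p = 0.99). The 2-exon feature had 3.08 and 3.24 there (mean 2.87, R2 = 0.48, limma, adjusted p = 0.035), and 6 of 13 alternatives ended this call, with adjusted p between 0.052 and 0.43.

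Rpl38 gave 3 features that tell a place from a name. Rpl38-ps8, a single exon of 337 bases on chromosome 2, had a mean of 11.59 and passed over strains (R2 = 0.52, limma, adjusted p = 0.020), a call lost without any 1 replicate number (adjusted p = 0.14 to 0.71) and with libraries centred on their median (0.19). The Rpl38-ps9 feature of 5 exons at the Rpl38 locus (PRN7.71G0167007) had a mean of 4.50 and passed too (R2 = 0.73, limma, adjusted p = 2.6e-13). It ran from 2.41 in FXLE13/Stm to 6.21 in HXB31/Ipcv. It was higher in BN-Lx/Cub (5.28, 6.15 and 5.51) than in SHR/OlaIpcv (3.23, 2.98, 3.80 and 3.33) by 2.31 ± 0.54 (SE, limma, adjusted p = 3.4e-03), and the animals did not overlap. With sequencing batch in the model the difference was 1.40 and did not pass (limma, adjusted p = 0.58), with the batch of the titles it was 1.68 (adjusted p = 0.33), and without BN-Lx/Cub 2 it was 2.06 (adjusted p = 0.068). The second Rpl38-ps9 feature, of 2 exons on chromosome 3, had a mean of 2.87 and did not pass over strains (R2 = 0.34, limma, adjusted p = 0.67).

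Strain means of Rpl38-ps8 rose with those of RefSeq Rpl38 over 69 strains (Pearson r = 0.88, Spearman rho = 0.88, permutation p = 1e-05 for each, two-sided, the smallest that 100000 permutations can give). Those of the 5-exon Rpl38-ps9 feature fell as RefSeq Rpl38 rose (r = -0.64, rho = -0.62, permutation p = 1e-05 for each). That feature lies at the Rpl38 locus, so the pair sets 1 locus against itself in separate tables. Without the 2 strains farthest from the median of the pseudogene, r was 0.87 and -0.62. The SD of the strain means of Rpl38-ps8 was 0.161, beside 0.195 between animals of a strain. Over the libraries of SHR/OlaIpcv 1 and SHR/OlaIpcv 4 it was 0.143 and 0.208. Both values of a strain come from the same libraries, and the part of variation shared by libraries was not tested. Within sequencing batches of 6 strains or more, r of Rpl38-ps8 was above 0 in 15 of 15 batches (0.75 to 0.99), and r of Rpl38-ps9 was below 0 in 11 of 15 (-0.95 to 0.73). By panel, r of Rpl38-ps9 was -0.76 in HXB/BXH, -0.64 in the inbred strains and 0.12 in 16 FXLE/LEXF strains, where the relation did not hold. Rpl38-ps8 and RefSeq Rpl38 were also close in level. They had 11.18 and 11.37 in FXLE13/Stm, the lowest strain of both, and 11.94 and 11.90 in FHH/EurMcwi, the highest of both. Whether reads of the parent were counted at the copy was not tested.

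**Figure D4:**
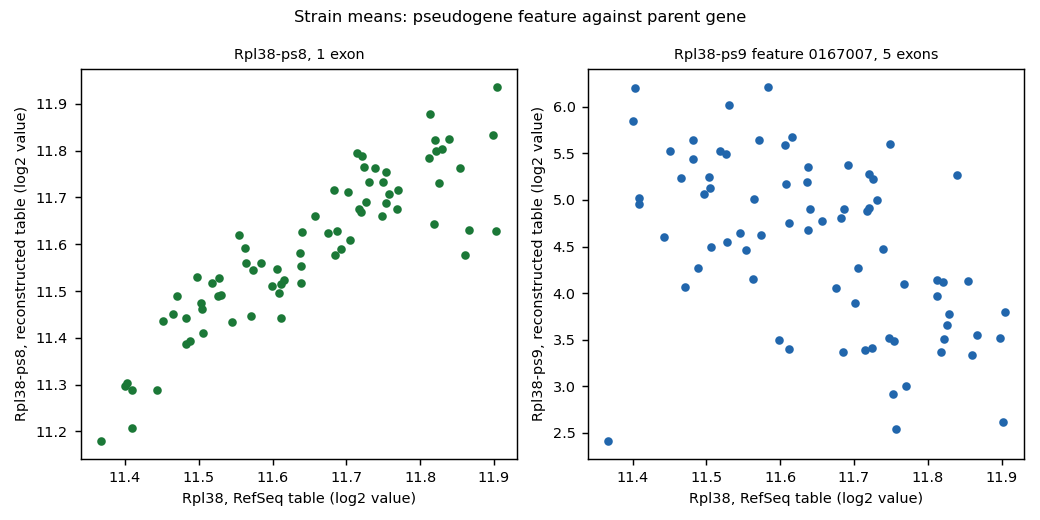
Strain means (log2) of Rpl38-ps8 (left) and of the 5-exon Rpl38-ps9 feature (right) against Rpl38 of the RefSeq table (x axes), 1 point per strain. Rpl38-ps8 rises with the parent gene (r = 0.88). The Rpl38-ps9 feature, which lies at the Rpl38 locus itself, falls (r = -0.64). Both correlations were taken over the 69 strains with 2 or more animals.

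The same comparison was made for 7 pairs in which both genes had 1 cluster of strains. Strains of a family share founders, and both values of a pair come from the same libraries. The SD of strain means was below that between animals of a strain in Rpl9-ps30 (0.176 and 0.243) and Rps20-ps10 (0.225 and 0.312). The same held in Rpl34-ps1 (0.357 and 0.575), Rps21-ps1 (0.468 and 0.619), the 2-exon Rps7-ps23 feature (0.355 and 0.564) and Rpl38-ps8. It did not in the 5-exon Rpl38-ps9 feature (0.919 and 0.710). The part of variation shared by libraries was not tested. After Benjamini-Hochberg adjustment 6 pairs passed, with adjusted permutation p-values of 1.4e-05 to 4.7e-05 for r. Of the features at the parent's place, Rpl9-ps30 followed RefSeq Rpl9 (r = 0.84, rho = 0.83), and Rps20-ps10 followed Rps20 (r = 0.79, rho = 0.78). The tables were scaled separately by the authors. Both held within 15 of 15 batches. Neither passed over strains (limma, adjusted p = 0.23 and 0.13). As both features lie at the place of the parent, each pair sets 1 locus against itself in separate tables. A relation of a copy with its parent was not tested by these pairs.

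Among the single-exon copies, Rpl34-ps1 followed Rpl34 (r = 0.51, rho = 0.58, above 0 in 13 of 15 batches) and Rps21-ps1 followed Rps21 (r = 0.49, rho = 0.47, above 0 in 10 of 15 batches). These copies were far below their parents per kb of exon, by 7.09 log2 units in Rpl34-ps1 and 4.75 in Rps21-ps1. Within the reconstructed table alone r was 0.48 and 0.46, and these were the pairs that passed of 8 tested. For the 2-exon Rps7-ps23 feature no relation passed with Rps7 of the RefSeq table (r = 0.09, permutation p = 0.47). Its panels differed in sign, with r of 0.42 in HXB/BXH, -0.26 in the inbred strains and -0.096 in FXLE/LEXF. Within batches r was above 0 in 11 of 15. Rpl34-ps1 and Rps21-ps1 did not pass over strains (limma, adjusted p = 0.59 and 0.054), and Rps21-ps1 did in 5 of 13 alternatives (adjusted p = 0.023 to 0.046).

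The single-exon feature of Rpl6-ps1 (PRN7.71G0117934) had 4 animals far above the rest. Rpl6 encodes a large-subunit protein, and its copy lay on chromosome 6 (123976035 to 123977001) near genes of the serpin family. Of 201 animals, 197 had 2.97 to 8.96 with a median of 4.79. The others were BUF/MnaMcwi 2 at 28.5, F344/NCrl 2 at 23.2, SHRSP/A3NCrl 1 at 14.0 and SS/JrHsd 1 at 11.3. The remaining animals had 3.57 and 7.67 in F344/NCrl, 3.67 and 3.80 in SHRSP/A3NCrl, and 3.71 and 4.91 in SS/JrHsd. The value of 28.5 is above the highest mean of any feature of the reconstructed table, 23.3. Among the cytosolic ribosomal protein genes the highest mean was 15.3. Whether such high values reflect expression was not tested. The F-test passed (limma, adjusted p = 6.6e-09), and it did not without the animals numbered 2 (limma, adjusted p = 0.82), with which BUF/MnaMcwi drops out. It also passed among the HXB/BXH strains (limma, adjusted p = 0.0063), and there it did not without the animals numbered 1 or 2 (adjusted p = 0.54 and 0.47). The 2-exon Rpl6-ps1 feature did not pass (mean 2.68, limma, adjusted p = 0.82), and the parent Rpl6 lay between 12.65 and 13.34 (limma, adjusted p = 0.24).

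The merged feature of Rps7-ps20 and Herc6 passed over strains (mean 9.21, R2 = 0.70, limma, adjusted p = 1.4e-09). It was higher in BN-Lx/Cub (9.87, 9.55 and 9.46) than in SHR/OlaIpcv (8.99, 9.33, 9.13 and 8.98) by 0.52 ± 0.14 (SE, limma, adjusted p = 0.027). The call did not hold with the replicate number as a block (adjusted p = 0.063), nor without BN-Lx/Cub 1 or 2 or SHR/OlaIpcv 1, 3 or 4 (adjusted p = 0.056 to 0.22). It was also lost with sequencing batch in the model (0.81, adjusted p = 0.063) and with the batch of the titles (0.57, adjusted p = 0.12). The merged feature of Rps7-ps23, Camta1 and Vamp3 had the highest mean of the members, 13.74, in a narrow range of 13.64 to 13.91 (limma, adjusted p = 0.55).

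The remaining features did not pass over strains. Rpl9-ps31 had 2 features at its own place on chromosome 3, of 1 exon (mean 7.82, strain means 5.98 to 9.02, R2 = 0.39) and of 3 exons (mean 5.75, 3.34 to 6.85, R2 = 0.30). Rpl4-ps1 had a mean of 5.84 and strain means of 3.15 to 7.19 (R2 = 0.38). The 2-exon Rps7-ps23 feature had a mean of 5.71 (4.96 to 6.58). Rpl39-ps13 at the Rpl39 locus had a mean of 7.68 (6.73 to 8.48). The 1 member of the RefSeq table, Rpl37a-ps1, had a mean of 12.73 and strain means of 12.45 to 13.17 (R2 = 0.41, limma, adjusted p = 0.19), where 37.3% of RefSeq genes passed.

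The spread over repeat libraries was read from SHR/OlaIpcv 1, sequenced in 12 libraries, and SHR/OlaIpcv 4, sequenced in 6. The SD over libraries had a median over the 25 features of 0.63 in the first (0.081 to 1.40) and 0.53 in the second (0.034 to 1.79), and was highest in Rpl4-ps1 in both. The SD between the animals of a strain had a median of 0.62 and that of the strain means 0.58. In Rps4x-ps9 the SD of the strain means was 1.10, beside 0.362 between animals of a strain and 0.52 and 0.63 over the libraries of these animals. In the 4-exon Rpl35a-ps6 feature it was 3.32, beside 1.15 between animals and 1.21 and 0.47 over libraries. SHR/OlaIpcv is at the lower level of that feature, so these library SDs do not cover the higher level. BN-Lx/Cub 3, of a strain at the higher level, had 9.56 in its batch 4 library and 3.17 in that of batch 6. The libraries of SHR/OlaIpcv 1 and SHR/OlaIpcv 4 shared sequencing batches 15, 16 and 18 and otherwise came from different ones. The part of animal and batch was not tested.

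Earlier versions of the tables, which count Ensembl genes, gave some of the same copies other levels. In v6, with 58 strains, 9 of 15 pseudogene identifiers passed over strains (background 32.3%), and in v5, with 45 strains, 7 of 10 did (63.6%). Rps4x-ps9 in v6 was low in the inbred strains that were low in v7.1, with 10.05, 10.49 and 10.67 in ACI/SegHsd and 10.57, 10.54 and 10.68 in DA/OlaHsd, against a mean of 12.31 (limma, adjusted p = 5.6e-21). FXLE15/Stm, low in v7.1, had 11.62 and 11.65 in v6, beside 11.53 to 11.59 in F344/Stm and 11.56 in LE/Stm. Rpl35a-ps6 in v6 had strain means between 1.33 and 1.66 (limma, adjusted p = 0.092).

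The copies of Rpl9 behaved otherwise across versions. Rpl9-ps31 ran from 6.35 in HXB13/Ipcv to 11.77 in DA/OlaHsd in v6 (R2 = 0.93), where BN-Lx/Cub was 4.23 ± 0.41 below SHR/OlaIpcv (SE, limma, adjusted p = 1.5e-14, with 1.01% of v6 genes called lower). In v7.1 neither of its features passed. Rpl9-ps30 in v6 was lower in BN-Lx/Cub by 2.67 ± 0.32 (SE, limma, adjusted p = 1.4e-10) and in v5 by 2.53 ± 0.20 (SE, limma, adjusted p = 6.2e-18, with 2% of v5 genes called lower). In v7.1, where its feature lay at the Rpl9 locus, the difference was 0.26 ± 0.19 in the other direction and did not pass (limma, adjusted p = 0.70). Rps7-ps23 in v5 had an R2 of 0.98 and ran from 6.00 to 10.44. Rpl37-ps5, which has no feature in the v7.1 tables, had an R2 of 0.93 in v6 and ran from 4.85 to 10.33.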

How the data were processed

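Brain RNA of 74 rat strains was used as deposited. The authors placed the RefSeq, v5 and v6 values on a log2 scale, and the v7.1 reconstructed tables were deposited on a similar scale but with single values up to 72.6 (genes) and 80.3 (transcripts), so their unit was recorded as a score, although values were read as log2 units throughout. For an earlier version the authors trimmed reads (cutadapt), removed ribosomal reads (Bowtie2), aligned them (HISAT2), assembled transcripts (StringTie), estimated counts (RSEM), removed 1 unwanted factor and applied the regularized log of DESeq2. The submitters' processing notes name 2 sets of versions for different samples (HISAT2 2.1.0 and RSEM 1.3.1, or HISAT2 2.2.1 and RSEM 1.3.3). In the earlier version described in the paper, each strain's reads were aligned to a genome that carried the SNPs of that strain. Transcripts were assembled strain by strain and then merged. Which tools, steps and build made the v7.1 tables, and whether their genomes differed by strain, is not given in the sources used here. The part of such genomes in strain differences between near-identical copies was not tested. Shared reads between copies can move with the annotation used. Spike-ins were left out.

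Libraries of 1 strain and replicate number were averaged to 1 animal, so that 219 libraries gave 201 animals (RefSeq, 214 and 197). Strains were compared by limma 3.58.1 over all features, with Benjamini-Hochberg adjustment, R2 over strains with 2 or more animals, and clusters of strain means by mclust 6.1.1 (1 to 3, equal variance). Level per kb is the value minus log2 of the exon length. Named were the called members of highest R2, split members with the largest gaps, progenitor differences, the highest means, the lowest R2 above the median, and parents. The remaining members were named after their values were seen, so that each is accounted for. Members and lists were chosen with earlier results of these data known. The limma step was tested on simulated data. Same-numbered animals of different strains did not deviate together (median r 0.00131, against -0.00059 for other numbers, and 0.0125 against -0.00838 in the RefSeq table). Replicates are separate animals by label only. Alternatives were batch, replicate block, first library, centring, trend, filters and left-out animals. For batch, an animal averaged over libraries entered with the lowest of their batch numbers.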

Additional observations from a re-analysis of the deposited data

Results flagged for a closer look

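Rps20-ps10 in SHR/OlaIpcv was flagged for 1 animal far from the others. The 4 animals had 11.04, 11.04, 10.49 and 11.03, and the gap to the lowest, animal 3, was 0.987 of the range, above Dixon's 95% critical value for 4 samples. Of 25 members tested in this group 1 was flagged, and chance flags about 1 group in 20. The Rps20-ps10 values of animals 1 and 4 were means of 12 and 6 libraries. These libraries ran from 9.93 to 11.5 and from 10.6 to 11.5, and the value of animal 3 lay within the first of these ranges. Animals 2 and 3 had fewer libraries, so the values compared were not of equal error. Animal 3 was also the lowest of the 4 in the 8-exon Rpl8-ps7 feature (10.78) and in Rps21-ps1 (5.08), and of all animals of the reconstructed table it was the lowest in neuron markers (12.9, against a median of 13.5). In the RefSeq table another animal was the lowest. Their part in the result was not tested.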

How the results depend on the processing

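Over strains the 11 calls became 7 to 8 when the animals of 1 replicate number were left out, and were 9 to 12 under the other alternatives. The median R2 of the members rose from 0.4501 to 0.5544 to 0.5895 without 1 replicate number, and that of the RefSeq member from 0.4063 to 0.4811 to 0.571. Fewer animals per strain enter there, and the cause was not tested. Calls among HXB/BXH strains went from 9 to 5 to 6, among FXLE/LEXF strains from 4 to 2 to 3, and among inbred strains from 7 to 4 to 7. Between BN-Lx/Cub and SHR/OlaIpcv, 4 calls became 0 with batch as a covariate, 1 with the batch of the titles, and 1 to 4 without 1 animal. The 1 call between F344/Stm and LE/Stm remained 1 call. Split members numbered 4 with the 10th and 60th percentiles, 2 with a gap of 2 as the rule, and 7 to 8 without 1 replicate number. No called value changed its direction under the alternatives run.

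With the replicate number as a block, 10 members were called over strains, losing the 2-exon Rpl8-ps7 feature (limma, adjusted p = 0.052), and 3 between BN-Lx/Cub and SHR/OlaIpcv, losing Rps7-ps20; it changed no other call. The numbers do not pair animals.

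Depth is unknown, so the counting error of a value cannot be given.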
